A study of Rattus norvegicus with 6 samples.

Results

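Bone morphogenetic protein (BMP) signalling and hepcidin were followed through 10 genes in liver endothelial cells of cirrhotic and control rats. The genes were the ligands Bmp2, Bmp4 and Bmp6, the receptors Acvrl1 and Eng, the target genes Id1, Id2, Id3 and Smad7, and the hepcidin gene Hamp. All probe sets whose only annotated symbol was one of these were taken, dim ones included, which gave 15 of the 15866 probe sets and 10 of 10411 genes. RNA had been hybridised to Affymetrix rat 230A arrays, 3 from cirrhotic and 3 from control Wistar rats. The cirrhotic rats were adult males that had gone through an induction protocol. The cells had been freed by collagenase perfusion, enriched by density centrifugation and captured on antibody-coated magnetic beads. How cirrhosis was induced, the controls' sex and age, the antibody's target and whether an array held RNA of 1 rat or several are not stated in the labels. P-values therefore measure the spread between these arrays, which may be technical in part, and the number of arrays limits the precision.

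BMPs are secreted dimers of the transforming growth factor beta superfamily. They bind paired type I and type II serine/threonine kinase receptors, and the receptors phosphorylate Smad1, Smad5 and Smad9, which enter the nucleus with Smad4 and switch on targets such as the Id genes. In the liver, sinusoidal endothelial cells are the known source of the BMP2 and BMP6 that instruct neighbouring hepatocytes to make hepcidin, the peptide hormone that blocks iron export. Endothelium also receives BMP signals itself, through the type I receptor ALK1, encoded by Acvrl1, and its co-receptor endoglin, encoded by Eng.

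The arrays were alike in overall signal, with a mean between 399.2 and 399.6 after removal of the lowest and highest 2% of values. Endothelial markers such as Kdr and Ptprb, a check of the labelled cell type, were bright in both groups but lower in cirrhotic. Of these, 12 of 13 tested pan-endothelial markers fell (median log2 difference -0.99), and their summed signal was 21061.2 to 22344.6 on cirrhotic and 39807.7 to 41662.8 on control arrays. Of 8 sinusoidal endothelial markers, Dnase1l3 and Fcgr2b the brightest, 7 fell and Cd36 rose (median -1.09), with sums of 16950.8 to 20016.1 in cirrhotic and 36866.6 to 41322.6 in control. Other cell types were present as well. The 18 stellate and myofibroblast markers summed to 19134.4 to 31614.9 in cirrhotic, against 5668.4 to 6652.6 in control (10 of 13 tested rose, median 2.00). The 9 cholangiocyte markers summed to 5240.5 to 13474.5 in cirrhotic, against 771.0 to 1539.8 in control (7 of 8 tested rose, median 3.11). The 12 macrophage markers summed to 7372.6 to 16413.5 in cirrhotic, against 6786.4 to 12139.0 in control (2 rose and 1 fell, median 0.17). Hepatocyte markers are described with Hamp. Ngfr, a stellate marker, was the 1 listed marker at or below the brightest bacterial control probe set on all 6 arrays. The part of other cells in the signals of the 10 genes was not tested, apart from the comparisons with markers on the same array. In bulk RNA, fewer cells of a type and less RNA per cell cannot be told apart.

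In cirrhotic arrays Bmp2 and Bmp6, the 2 ligands by which sinusoidal endothelium raises hepcidin, fell. Both receptors, Id1 and, less firmly, Id3 fell as well, while Hamp itself rose. Set against pan-endothelial markers on the same array, Bmp2 and Bmp6 stayed lower, and Id3 and Smad7 were higher. Acvrl1, Eng and Id1 overlapped between the groups. With sinusoidal endothelial markers instead, Id3 overlapped, and Eng and Id1 no longer did. Hamp overlapped when set against the mean of 20 hepatocyte markers, which changed unequally. In plain signal Bmp4 and Smad7 did not pass the test, and the probe sets of Id2 disagreed. Differences were taken on the log2(signal + 16) scale and tested with limma over the 9519 probe sets that were bright enough, with Benjamini-Hochberg adjustment over all of them and a threshold of 0.05. Of the 15 member probe sets 14 were tested and 10 passed, 8 lower and 2 higher in cirrhotic. Among all tested probe sets 25.4% passed, 13.2% lower and 12.3% higher. The groups did not overlap for 11 of the 14, 8 lower and 3 higher, against 44.9% of all tested probe sets, 24.1% lower and 20.8% higher. Among the 3 higher was Bmp4, which was bright enough only through its cirrhotic signals. By the brightest probe set of each gene, 6 genes fell and 2 rose, against 12.7% of all tested genes called in each direction. Those that rose were Hamp and Id2, the latter by only the brighter of its probe sets. The median log2 difference over the 10 genes was -0.84, and over all tested genes it was -0.0023.

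**Figure D1:**
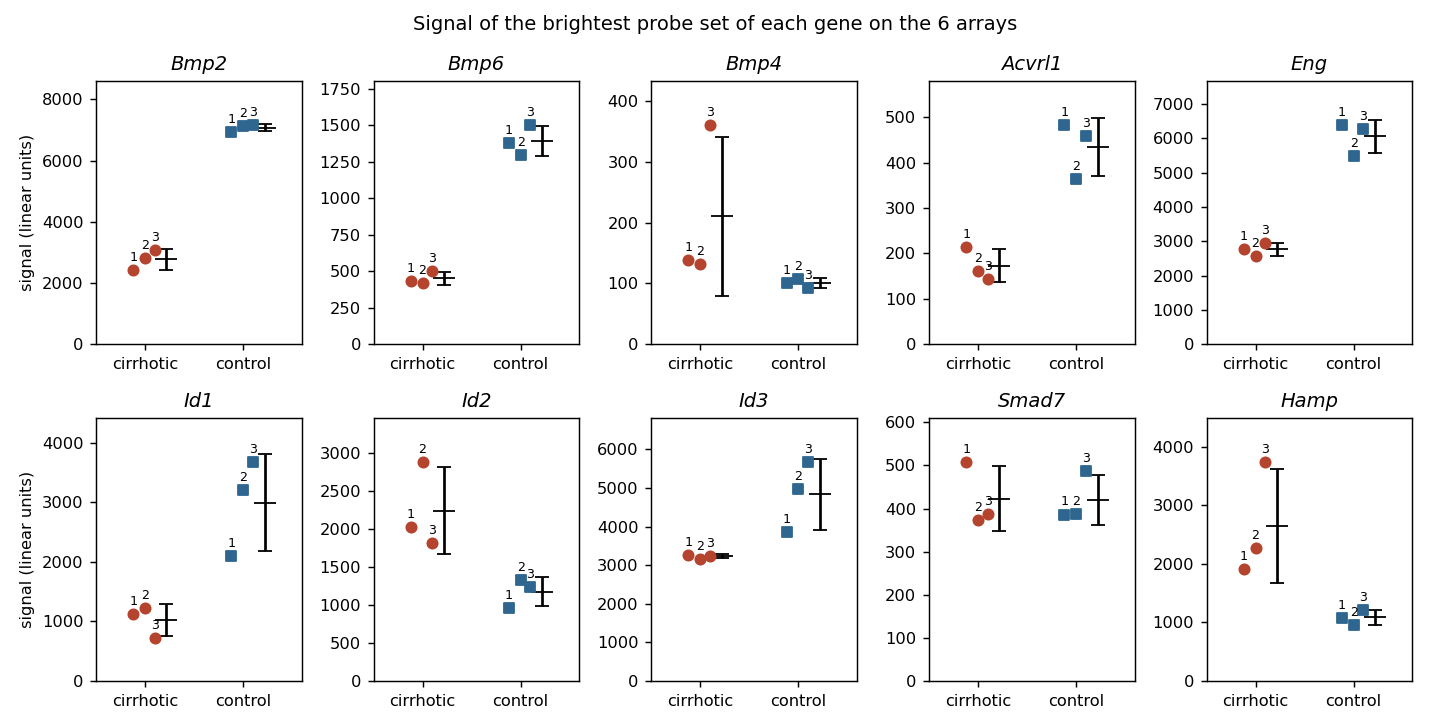
Signal of the brightest probe set of each gene on the 3 cirrhotic (circles) and 3 control arrays (squares), on linear axes from 0, with array numbers and the mean ± SD beside the points. All cirrhotic points of Bmp2, Bmp6, Acvrl1, Eng, Id1 and Id3 lie below the control points, those of Bmp4, Id2 and Hamp lie above them, and those of Smad7 overlap them.

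Bmp2 was measured by a pair of probe sets. Probe set 1398270_at read 2410.1, 2824.1 and 3071.7 on the cirrhotic arrays, against 6935.2, 7124.7 and 7163.6 on the control arrays. The dimmer 1368945_at read 765.8, 776.6 and 1142.1 in cirrhotic, against 3486.9, 3314.2 and 3621.6 in control. Every cirrhotic signal lay far under every control signal on both, and the control arrays differed little among themselves. On the log2 scale Bmp2 fell by 1.36 by the brighter probe set (limma adjusted p = 0.000457, SE 0.11, 3 arrays per group). By the dimmer one it fell by 1.96 (SE 0.17, adjusted p = 0.000518). Only 26 of the 9519 tested probe sets had a more negative difference than 1368945_at. Both calls held in all 17 alternative settings, between -1.47 and -1.26 for the brighter probe set.

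Bmp6, a ligand whose loss causes iron overload in mice, showed the same direction on both of its probe sets. The brighter, 1388920_at, read 429.9, 420.2 and 503.5 in cirrhotic, against 1380.7, 1295.4 and 1503.2 in control. Probe set 1388201_at read 216.4, 180.2 and 431.8 in cirrhotic, against 812.7, 746.7 and 1154.0 in control. The groups were again fully apart, with cirrhotic array 3 the highest of its group on both probe sets. Bmp6 fell by 1.59 (SE 0.13, adjusted p = 0.000483) by the brighter probe set. By the other it fell by 1.73 (SE 0.31, adjusted p = 0.00679), and by 2.08 without cirrhotic array 3, and both calls held in all 17 alternatives.

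Bmp4, a close relative of Bmp2 made by many mesenchymal cells, behaved otherwise. It read 138.0, 132.1 and 360.4 in cirrhotic, against 100.9, 107.8 and 92.8 in control. Cirrhotic array 3 carried most of the difference, although all 3 cirrhotic signals lay above all control signals. The probe set lay close to the filter on dim signals, which corresponds to a signal of 127.1, and its control signals alone lay under that level. The log2 difference was 0.82 (SE 0.35, adjusted p = 0.122) and did not pass. Without cirrhotic array 3 it was 0.38 (adjusted p = 0.222). The stellate and myofibroblast markers rose in the same arrays, but on cirrhotic array 3 they were close to their level on the other cirrhotic arrays (median difference 0.092). All 20 hepatocyte markers, in contrast, were highest among cirrhotic arrays on array 3, by a median of 0.90 over the others. The part of either cell type in the Bmp4 signal was not tested.

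Both receptor genes fell. Acvrl1 encodes ALK1, the type I receptor for circulating BMP9 and BMP10 on endothelium. It read 214.3, 161.5 and 143.2 in cirrhotic, against 483.0, 363.0 and 457.8 in control, and fell by 1.26 (SE 0.18, adjusted p = 0.00296). Eng, the endoglin co-receptor that presents those ligands to ALK1, read 2780.5, 2580.0 and 2950.8 in cirrhotic, against 6390.7, 5493.4 and 6284.3 in control. It fell by 1.12 (SE 0.10, adjusted p = 0.000624). The highest cirrhotic signal of each gene was well below its lowest control signal, and both calls held in every alternative in which the gene was tested (16 for Acvrl1 and 17 for Eng).

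The Id genes encode inhibitors of basic helix-loop-helix transcription factors and are the classical immediate targets of BMP-activated Smads. Id1 read 1126.7, 1219.0 and 727.4 in cirrhotic, against 2092.0, 3206.0 and 3687.0 in control. The control arrays differed more among themselves than for the ligands, with control array 1 the lowest, yet no cirrhotic signal reached it. Id1 fell by 1.53 (SE 0.26, adjusted p = 0.00527). Id3 read 3272.7, 3170.4 and 3246.2 in cirrhotic, against 3850.0, 4978.1 and 5685.6 in control, so the cirrhotic signals were nearly level and the control signals spread widely. Id3 fell by 0.56 (SE 0.14, adjusted p = 0.0257), a smaller change than that of Id1 by its estimate, though the difference between the 2 genes was not tested. Leaving out 1 array ended the call of Id3 in 4 of 6 cases, with adjusted p = 0.0812 for control array 2, 0.0903 for control array 3, 0.0743 for cirrhotic array 1 and 0.0527 for cirrhotic array 2.

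For Id2 the direction depended on the probe set. By 1368870_at, the brighter, it read 2025.3, 2890.1 and 1818.7 in cirrhotic, against 959.2, 1333.9 and 1231.9 in control, and rose by 0.91 (SE 0.20, adjusted p = 0.0152). The call ended without control array 1 (adjusted p = 0.0525). By 1375532_at it read 1755.7, 952.3 and 1636.1 in cirrhotic, against 1383.1, 1957.8 and 1827.6 in control, with overlapping groups and a difference of -0.28 (SE 0.25, adjusted p = 0.434). The ratio of the first to the second signal was 1.15, 3.03 and 1.11 on the cirrhotic arrays and 0.694, 0.681 and 0.674 on the control arrays. The control arrays gave nearly one ratio, and cirrhotic array 2 stood far from the others. No direction is given here for Id2 as a gene.

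Smad7, an inhibitory Smad that BMP and transforming growth factor beta signals both induce, showed no difference past the threshold on any probe set. The brightest, 1368896_at, read 508.9, 374.3 and 386.3 in cirrhotic, against 386.1, 388.1 and 487.6 in control, and each group held 1 higher array. Its difference was 0.0035, with a 95% interval of -0.38 to 0.39 (adjusted p = 0.992). Probe set 1368897_at read 265.8, 268.1 and 254.1 in cirrhotic, against 164.4, 334.2 and 259.6 in control (difference 0.10, interval -0.43 to 0.64, adjusted p = 0.776). The third, 1368898_at, was the only member probe set too dim to be tested, with 172.2, 137.2 and 104.3 in cirrhotic, against 67.0, 173.5 and 95.3 in control. The intervals leave room for changes of modest size in either direction, and the sign of both tested differences changed with the setting.

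**Figure D2:**
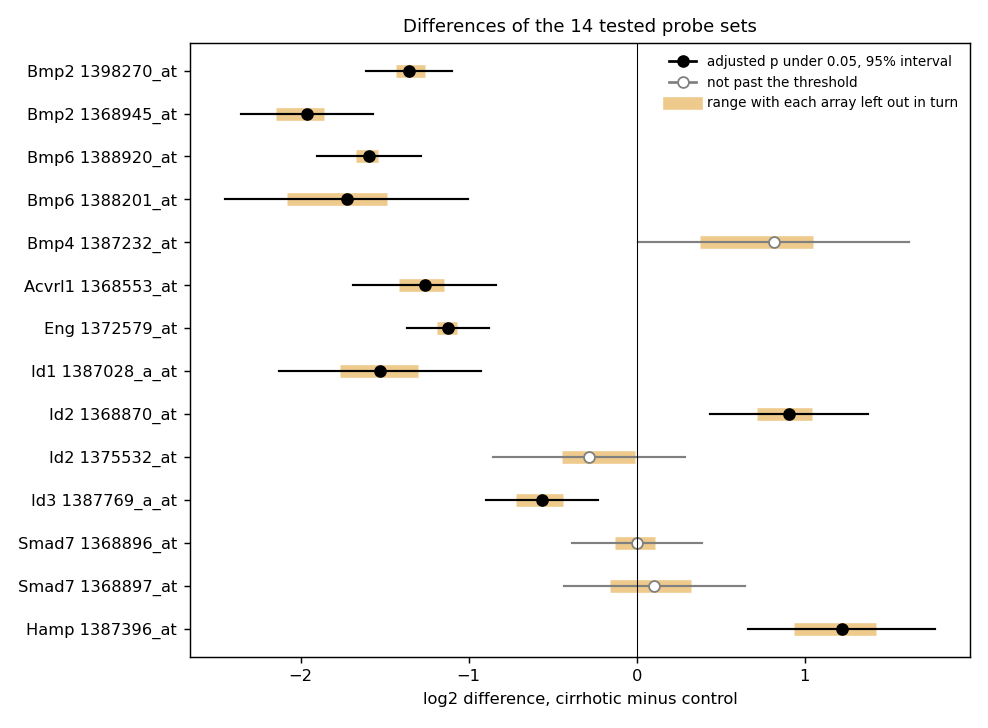
Log2 difference, cirrhotic minus control, of the 14 tested probe sets with its 95% interval (lines) and its range when each array is left out in turn (bands). Filled points passed the test. The bands of the Bmp2, Bmp6, Acvrl1, Eng and Id1 probe sets all lie below -1, that of Hamp lies between 0.94 and 1.42, and those of Smad7 include 0.

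Hamp is transcribed mainly by hepatocytes, where BMP and interleukin 6 signals converge on its proximal promoter. The RefSeq promoter window of rat Hamp (GRCr8, chr1:95300222-95300521, minus strand), 250 bases before to 50 after the start, is shown since it carries both kinds of element that are described in the human promoter. Capitals mark the letters GGCGCC, the core of the BMP response element there, and TTCNNNGAA, the pattern bound by STAT factors:

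Hamp: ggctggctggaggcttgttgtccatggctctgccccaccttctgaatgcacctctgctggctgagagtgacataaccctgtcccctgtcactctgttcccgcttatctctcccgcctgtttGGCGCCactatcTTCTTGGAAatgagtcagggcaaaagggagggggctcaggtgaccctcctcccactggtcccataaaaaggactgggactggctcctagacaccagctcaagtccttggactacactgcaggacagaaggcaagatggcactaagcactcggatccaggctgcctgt

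The first match covers positions -129 to -124 from the start and the second -117 to -109, with 6 bases between them and no overlap. Both patterns read the same on either strand. GGCGCC was found in 11.02% of 33469 rat promoter windows of this length, TTCNNNGAA in 8.87% and both in 0.547%. Windows were found for 8 of the 10 genes, those other than Bmp2 and Acvrl1. GGCGCC was also found at 2 places in the window of Smad7, shown with 17 bases on either side as a contrast to Hamp, since the Smad7 signal did not pass the test:

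Smad7, chr18:71263395-71263434, plus strand: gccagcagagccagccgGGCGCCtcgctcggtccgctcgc
Smad7, chr18:71263455-71263494, plus strand: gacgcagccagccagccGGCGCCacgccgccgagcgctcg

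The windows of Bmp4, Bmp6, Eng, Id1, Id2 and Id3 held neither pattern, and sequence outside these windows was not searched. A match of letters is a description of the sequence, not a measured site.

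The Hamp signal was 1907.6, 2274.6 and 3744.8 on the cirrhotic arrays, against 1075.8, 962.1 and 1212.7 on the control arrays. All cirrhotic signals were above all control signals, with cirrhotic array 3 far above the rest. Hamp rose by 1.22 (SE 0.24, adjusted p = 0.00934), and by 0.94 without cirrhotic array 3 (adjusted p = 0.00471). The call held in all 17 alternatives. Hepatocyte markers were present in both groups: 8 of 20 rose, the male-specific Cyp2c11 fell and 11 did not pass (median 0.66). The 8 that rose were Ahsg, Apoa1, Cps1, Fga, Fgb, Fgg, Hpx and Tat. Their mean log2 signal was 11.08, 10.66 and 11.73 on cirrhotic arrays, against 10.82, 10.36 and 10.05 on control arrays. Among the control arrays this mean was lowest on array 3, where Hamp was highest. Their summed signal was 51585.7 to 97714.9 in cirrhotic and 43697.0 to 60527.6 in control, and all 20 had their highest cirrhotic signal on array 3. Alb, which encodes albumin, read 12837.7, 11422.2 and 13924.9 in cirrhotic, against 11729.0, 10635.9 and 10860.4 in control (difference 0.20, adjusted p = 0.142). Ttr read 6289.4, 4873.9 and 9303.0 in cirrhotic, against 6394.5, 5110.8 and 6070.5 in control (difference 0.17, limma adjusted p = 0.591).

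Set against the mean log2 signal of those 20 hepatocyte markers on the same array, Hamp no longer separated the groups. The log2 difference between Hamp and the marker mean was -0.17, 0.50 and 0.14 on cirrhotic arrays, against -0.73, -0.43 and 0.21 on control arrays. Control array 3 lay above cirrhotic arrays 1 and 3 on this measure. The means differed by 0.47 (exact permutation test, two-sided, p = 0.3), and no p under 0.1 can be reached with 3 against 3 arrays. The mean of the 20 markers was itself 0.75 higher in cirrhotic, whereas Alb and Ttr differed by 0.20 and 0.17. Hamp was not tested against single markers, so the overlap is stated for this mean only.

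**Figure D3:**
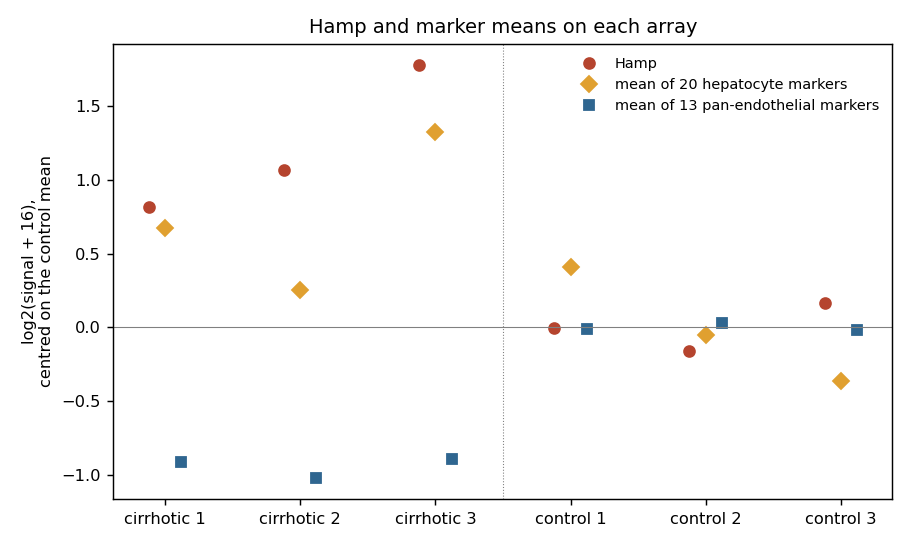
Log2(signal + 16) of Hamp (circles), the mean of 20 hepatocyte markers (diamonds) and the mean of 13 pan-endothelial markers (squares) on each array, each centred on its mean over the control arrays. Hamp and the hepatocyte mean are both highest on cirrhotic array 3, while the endothelial mean is about 0.94 lower on cirrhotic arrays.

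The same comparison within arrays was made for the other genes against 13 pan-endothelial markers that are not among the 10 genes. The marker mean was 0.94 lower in cirrhotic, so a gene that fell with it would differ by about 0 after subtraction. Bmp2 was 0.88, 1.22 and 1.21 above the marker mean on cirrhotic arrays, against 1.5, 1.5 and 1.55 on control arrays, a remaining difference of -0.41. Bmp6 minus the marker mean was -1.56, -1.48 and -1.36 on cirrhotic arrays, against -0.81, -0.95 and -0.69 on control arrays, a remaining difference of -0.65. The groups did not overlap for either ligand, and the exact two-sided permutation p was 0.1, the smallest that these arrays allow. For Acvrl1, Eng and Id1 the remaining differences were -0.32, -0.18 and -0.58, the groups overlapped, and the permutation p was 0.2, 0.2 and 0.3 for 3 against 3 arrays, each by the exact test. Without cirrhotic array 3 the differences of Acvrl1 and Id1 were -0.18 and -0.33.

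Id3, which fell in plain signal, was 0.38 higher in cirrhotic when taken relative to the endothelial markers, without overlap (exact permutation p = 0.1), and 0.23 higher without control array 1. Smad7 by its brightest probe set was 0.95 higher on this measure and Id2 by its brighter probe set 1.85 higher, each with p = 0.1 in the exact permutation test. The dimmer Id2 probe set, which disagreed in plain signal, was not set against the markers. The difference of Bmp4 was 1.76 and that of Hamp 2.16, both again without overlap. A difference of this kind shows unequal change within the array, not which of both quantities moved. With 8 sinusoidal markers in place of the pan-endothelial ones, the groups of Eng and Id1 no longer overlapped (differences of -0.29 and -0.70), and those of Id3 did (0.27).

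**Figure D4:**
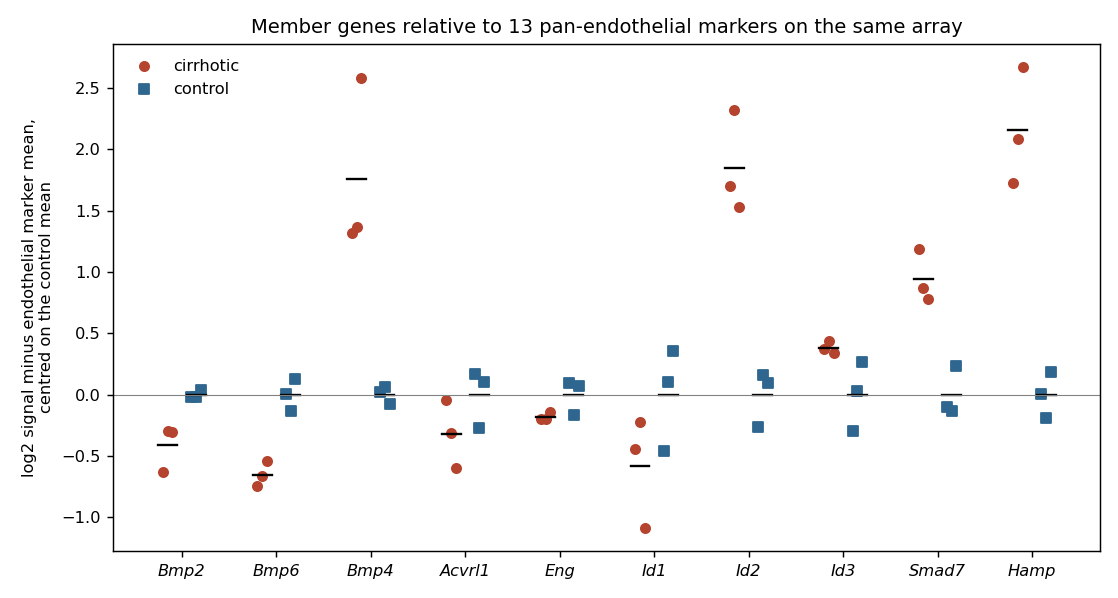
Log2 signal of each gene's brightest probe set minus the mean of 13 pan-endothelial markers on the same array, centred on the control mean. Circles are cirrhotic arrays, squares control arrays and bars group means. Bmp2 and Bmp6 lie below the control arrays without overlap, Acvrl1, Eng and Id1 overlap them, and Id2, Id3, Smad7, Bmp4 and Hamp lie above.

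Among other genes of the BMP pathway, 3 of 8 tested inhibitors and 1 of 3 tested targets passed, and none of 2 ligands, 4 receptors and 3 signal-transducing Smads did. Of 47 listed genes 33 had a probe set of their own, 20 were bright enough to be tested, and 2 rose and 2 fell, which is 20% against 25.5% of all tested genes. The median difference over the 20 was -0.086. The count was 2 without cirrhotic array 1. Twsg1, an extracellular BMP-binding protein, read 626.8, 419.5 and 454.0 in cirrhotic, against 226.0, 174.1 and 162.1 in control, and rose by 1.34 (SE 0.19, adjusted p = 0.00288). Fst, encoding follistatin, which traps activins and some BMPs, read 250, 258.3 and 199.2 in cirrhotic, against 111.2, 137.5 and 86.7 in control. All cirrhotic signals were the higher ones, and Fst rose by 0.99 (SE 0.20, adjusted p = 0.0101). Leaving out cirrhotic array 1 ended the call (adjusted p = 0.0506). The control signals of Fst averaged 111.8, under the filter level of 127.1, so it was tested through its cirrhotic signals.

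Smad6, the inhibitory Smad that acts mainly on BMP receptors, read 349.8, 343.7 and 456.4 in cirrhotic, against 577.2, 887.3 and 633.9 in control. The groups lay apart, and Smad6 fell by 0.83 (SE 0.20, adjusted p = 0.0186). Leaving out either control array 3 (adjusted p = 0.0509) or cirrhotic array 1 (0.0740) ended this call. Gata2, a transcription factor of endothelial and blood cells that BMP4 induces in embryos, read 220.0, 250.2 and 266.9 in cirrhotic, against 688.0, 582.1 and 653.1 in control. It fell by 1.33 (SE 0.13, adjusted p = 0.000813), with every cirrhotic signal under every control signal. The remaining 16 tested genes did not pass. Among them was the type II receptor gene Bmpr2 (difference -0.90, SE 0.29, adjusted p = 0.0573). Others were the signal-transducing Smad1 (-0.44, SE 0.14, adjusted p = 0.0609) and Smad5 (-0.34, SE 0.13, adjusted p = 0.0953). On the brightest probe set of each of these genes, all cirrhotic signals lay below every control signal. On another probe set the groups overlapped for Smad1 (-0.29, limma adjusted p = 0.26) and Smad5 (0.13, limma adjusted p = 0.61). The groups also overlapped on a Smad5 probe set too dim to be tested (-0.10). The common partner Smad4 differed by -0.15 (SE 0.15, adjusted p = 0.496). The ubiquitin ligase gene Smurf2 differed by -0.02 on its brightest probe set and fell by 0.71 on another (adjusted p = 0.0253). All cirrhotic signals lay above every control signal for Skil (0.53, limma adjusted p = 0.0667) and the receptor gene Acvr1 (0.32, limma adjusted p = 0.178). For Smurf1 they lay below (-0.37, limma adjusted p = 0.166). Of the 20 tested genes, 6 were lower and 4 higher without overlap, against 24.1% and 20.8% of all tested probe sets.

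The list of hepcidin regulators held 18 genes known to act on hepcidin or, for Slc40a1, acted on by it. Of these 12 had a probe set of their own and 10 were tested. Among the 10, 3 rose and 2 fell, which is 50% against 25.5% of all tested genes (median 0.22). The count was 2 to 7 when arrays were left out in turn, and it was 3, 3, 2, 2 and 3 without control arrays 1, 2 and 3 and cirrhotic arrays 1 and 2. Il6, the cytokine that drives hepcidin in inflammation, read 524.0, 359.4 and 177.7 in cirrhotic, against 63.3, 89.7 and 37.6 in control. It rose by 2.15 (SE 0.40, adjusted p = 0.00716), with cirrhotic array 3 the lowest of its group. All 3 control signals lay under the filter level of 127.1, so Il6 was tested through its cirrhotic signals. On cirrhotic array 3 all 12 macrophage markers and the 8 tested cholangiocyte markers were also at their lowest among cirrhotic arrays, by medians of -1.04 and -2.06 against the others. Their part in the Il6 signal was not tested. Il6r, its binding receptor, read 296.2, 365.4 and 153.0 in cirrhotic, against 132.0, 99.9 and 73.4 in control, and rose by 1.24 (SE 0.32, adjusted p = 0.0273). The control mean of Il6r, 101.8, was also under the filter level. Il6st, the signal-transducing chain gp130, read 3119.2, 3827.1 and 3732.2 in cirrhotic, against 7383.5, 7366.7 and 7954.0 in control. It fell by 1.09 (SE 0.11, adjusted p = 0.000719), and its other probe sets fell too, by 0.78 (SE 0.092) and 1.16 (SE 0.32).

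Iron-sensing genes of the list were Tfrc and Hfe. Tfrc, the transferrin receptor, read 944.9, 1706.8 and 734.5 in cirrhotic, against 489.3, 622.4 and 441.4 in control, and rose by 1.02 (SE 0.30, adjusted p = 0.0384). Its other probe set rose too, by 1.09 (adjusted p = 0.00471). Hfe, mutated in human haemochromatosis and needed for full hepcidin expression, read 141.1, 122.9 and 196.2 in cirrhotic, against 231.3, 271.2 and 268.5 in control, and fell by 0.71 (SE 0.19, adjusted p = 0.0295). Slc40a1, the iron exporter ferroportin that hepcidin degrades, differed by 0.25 (SE 0.17, adjusted p = 0.315). Stat3 differed by -0.48 (SE 0.18, adjusted p = 0.0868) on its brightest probe set and by -0.061 on another (limma adjusted p = 0.827). The calls of Il6r, Tfrc and Hfe were fragile. For Il6r the adjusted p was 0.0700 without control array 2, 0.0961 without control array 3, 0.103 without cirrhotic array 1 and 0.0681 without cirrhotic array 2. For Tfrc, by its brightest probe set, it was 0.101, 0.0586 and 0.128 without control arrays 1, 2 and 3, and 0.0845 without cirrhotic array 1. For Hfe it was 0.0571 to 0.0992 with any 1 array other than cirrhotic array 3 left out. With a larger added constant of 126, the differences of Il6, Il6r, Fst and Hfe were 1.28, 0.77, 0.61 and -0.46, since dim signals are compressed by it.

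**Figure D5:**
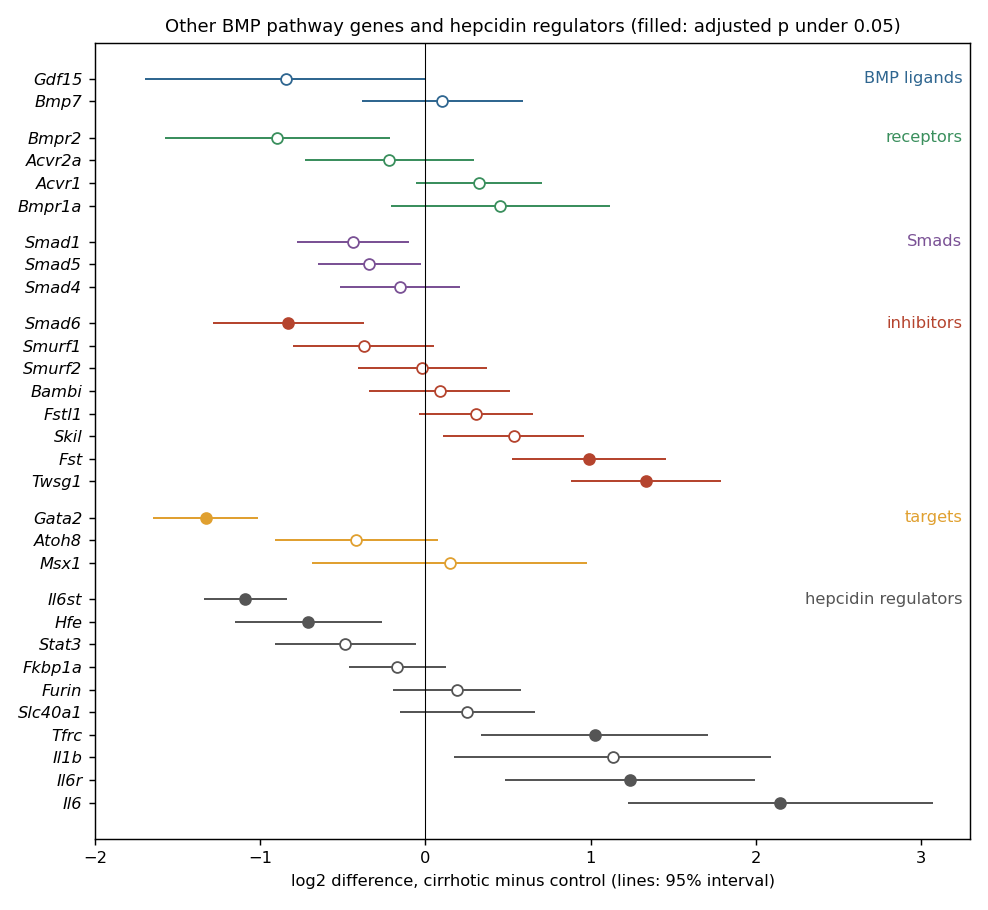
Log2 difference, cirrhotic minus control, with its 95% interval for the 20 tested BMP pathway genes and the 10 tested hepcidin regulators, grouped by role and drawn from their brightest probe sets. Filled points passed the test: Smad6, Fst, Twsg1 and Gata2 in the pathway, and Il6st, Hfe, Tfrc, Il6r and Il6 among the regulators.

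The genes whose profiles over the 6 arrays were most like those of Bmp2, Id1 and Hamp were found by the root mean square difference of log2 signals, each centred on its own mean. These profiles are dominated by the step between the groups. Nearest to Bmp2 were Gpr155 (0.070), the metalloprotease gene Adamts1 (0.073) and Cracr2b (0.073), with differences of -1.41, -1.34 and -1.27. Nearest to Id1 were Phlda1 (0.189), the flow-responsive endothelial transcription factor gene Klf2 (0.197) and the antisense RNA gene Thumpd3-as1 (0.220). Klf2, by a probe set that is not its brightest, read 877.0, 1139.3 and 707.5 in cirrhotic, against 2428.9, 2847.1 and 2865.5 in control, the same order of arrays as Id1 in both groups. Nearest to Hamp were the glutathione transferase gene Gsta3 (0.214), Angptl2 (0.221) and Hsd17b13 (0.230), a lipid droplet protein gene of hepatocytes, with differences of 0.95, 1.12 and 0.94. The control signals of Hsd17b13 (105.5, 72.8 and 116.0) lay under the filter level, so it was tested through its cirrhotic signals.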

How the data were processed

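For each array the authors deposited 1 linear signal intensity per probe set. Near-equal trimmed means show that arrays had been scaled; the software is not given in the sources used here. Arrays were handled after the manufacturer's manual, per the labels. Scanner files and detection calls were not used here. Groups came from the sample titles; 1 control array without a number was called control 1.

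Values were turned into log2(signal + 16), 16 being the 10th percentile. After removal of 57 control probe sets, the dimmest 40% by mean log2 signal were set aside, which kept 9519. The groups were tested two-sided in R 4.3.3 by limma 3.58.1 (lmFit, then eBayes with trend) and p-values adjusted by Benjamini-Hochberg. The brightest probe set by mean log2 signal stood for a gene in counts. Exact permutation tests used scipy 1.17.1. The test was checked on simulated data. The highest signal of 27 bacterial control probe sets (Dap, Lys, Phe, Thr and Trp) was 21.7 to 49.9; whether their transcripts were added to the RNA is not stated.

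Symbols came from the platform annotation; 12783 probe sets had 1 symbol, 312 several and 2771 none. Promoters came from RefSeq (GRCr8). The files pair no probe sets with positions. All 10 genes, all called genes of both lists and the 3 genes most alike to Bmp2, Id1 and Hamp were named by rule. Of each cell type list (pan-endothelial, sinusoidal endothelial, hepatocyte, stellate and myofibroblast, macrophage, cholangiocyte) only counts, sums and examples are given. Genes, lists and tests were chosen with earlier results of these data known. Alternatives covered scaling, the added constant, the filter, variance models, weights per array, removal of shared-sequence probe sets, a block for array number and each array left out.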

Additional observations from a re-analysis of the deposited data

How the results depend on the processing

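Of the member calls, those of Bmp2, Bmp6, Acvrl1, Eng, Id1 and Hamp held under every alternative in which the probe set was tested, and between 9 and 10 member probe sets passed when arrays were left out in turn. In the same settings 1341 to 2472 of all probe sets passed, 1341 without control array 3 and 1366 without cirrhotic array 1, against 2421 with all arrays. The other BMP pathway genes called numbered 2 to 6, against 4, and the hepcidin regulators 2 to 7, against 5. Array weights gave 3772 of 9519 probe sets and 11 of 20 pathway genes. Without a filter on dim probe sets 3 of 12 regulators passed, against 2457 of all 15866 probe sets. With a stricter filter 2 of 7 regulators passed, against 1895 of 6346 probe sets, so the larger share among regulators was not seen there.

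Only numbers 2 and 3 stand in titles of both groups, and the titles do not state that they pair the arrays. Deviations from the group means correlated at -0.0093 and -0.16 between arrays of the same number. With the other number the correlations were -0.018 and 0.22. So few arrays cannot decide whether they were paired. With numbers 2 and 3 as a replicate block over 4 arrays, 908 of 9519 probe sets passed. So did 9 of 14 member probe sets, 2 of 20 pathway genes and 3 of 10 regulators. The Id2 call ended (0.83, limma adjusted p = 0.068).

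The difference of Smad7 by 1368896_at turned to -0.0087 with quantile normalization, -0.075 with median centring, -0.19 with the block, and -0.052, -0.048 and -0.13 without control array 1, control array 2 and cirrhotic array 1; with 1 array left out it ranged up to 0.11. By 1368897_at it turned to -0.17 with the block and -0.16 without control array 1, with 0.32 as its highest value of this kind. The direction of the differences from the marker means changed under none of the marker lists and arrays left out.

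Signal over background limits the dim genes, above all Bmp4, Il6 and the 14 list genes under the filter.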

Other observations

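Under the filter on dim signals lay 14 genes of the BMP and hepcidin lists, for which only a fit without that filter gives a test. Of these 14, 2 passed it, Nog and Tmem100, against 2457 of all 15866 probe sets in that fit. That is close to the same share. Nog, which encodes the BMP antagonist noggin, read 37.7, 38.0 and 51.3 on cirrhotic arrays, against 129.3, 109.2 and 120.8 on control arrays, a difference of -1.22 (SE 0.19, limma adjusted p = 0.00623 without the filter). Tmem100, an endothelial target of ALK1, read 78.1, 74.6 and 57.8 in cirrhotic, against 21.9, 36.0 and 19.0 in control, and no size is given, since all 3 control signals were at or below the brightest bacterial control probe set of their array. Grem1, a BMP antagonist of fibroblasts and myofibroblasts, read 181.5, 118.0 and 55 in cirrhotic, against 42.4, 38.4 and 29.0 in control, and did not pass (adjusted p = 0.0605). All 3 control signals of Grem1 and the signal of Nog on cirrhotic array 1 were likewise at or below the brightest bacterial control of their array, so the difference of Nog is uncertain in size.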
